A study of Drosophila melanogaster with 8 samples.

Results

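Pools 5 and 6 were 2 separate pools of adult female *Drosophila melanogaster* that had received the same treatment, and their RNA was compared directly on 2 arrays of a 2-colour cDNA array. The 2 arrays were taken by their labels, which name these pools, and they are 2 of the 8 arrays of the series. One array (array number 223) carried the normal labelling, with pool 5 in Cy3 and pool 6 in Cy5. The other (array number 219) carried the same 2 RNA pools with the dyes exchanged. The other 6 arrays compared pools 1 and 2, 3 and 4, and 7 and 8 in the same way, and serve here to show how far 2 like-treated pools lay apart elsewhere in the series.

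All 8 pools were of the wild-type strain Oregon-R, each of about 240 females aged 4 to 10 days, reared under a cycle of 16 h of light and 8 h of darkness and at a relative humidity of 60%. Every pool was given 2 mL of 99% ethanol in a Potter's tower, an apparatus for even spraying of small animals, and RNA was taken after 6 h. No treatment, genotype or age separated pool 5 from pool 6, so each difference reported here is one between like-treated pools. Pools 5 and 6 are 1 pair of pools, and their 2 arrays repeat the labelling and hybridization of the same RNA.

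RNA from whole flies mixes the transcripts of muscle, gut, fat body, nervous tissue and, in females, a large ovary. A pool average therefore follows the balance of tissues as well as the activity of genes within them, and in bulk samples fewer cells of a type and less RNA per cell cannot be told apart. On a 2-colour array a difference between the pools keeps its direction when the dyes are exchanged, whereas a preference of a clone for one dye turns round.

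A value below is a log2 ratio of one pool over the other, 1 unit being 2-fold, and the mean of the 2 arrays is called the pool difference. Base 2 is an inference from how large the values are, and the sources used here do not say whether pool 5 or pool 6 is the numerator. "Higher" and "lower" thus mean higher and lower in the numerator pool. The values of reversed-label arrays were taken with their sign as deposited. That reading rests on the 12 correlations of a normal-label array with the reversed-label array of another pool pair, of which 9 were below 0 (median -0.16). The reversed-label array of pools 5 and 6 itself gave 0.13, -0.003 and 0.03 with the normal-label arrays of pools 1 and 2, 3 and 4, and 7 and 8. The reading thus comes mainly from the other reversed-label arrays. With those, the normal-label array of pools 5 and 6 gave -0.14, -0.41 and -0.28 in the same order. The counts of calls are also given with the sign of the reversed-label array of pools 5 and 6 turned. Ratios carry no expression level, so the tissue and sex on the labels could not be checked against marker genes. Of 8448 clones, 2833 carried 1 gene symbol (2377 genes).

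Two-sided tests were made with limma over all 8448 clones, with Benjamini-Hochberg adjustment at 5%. The first set the pool difference against the technical spread left in all 8 arrays after a common dye term and each pool pair were fitted. The second set it against the spread of the pool differences of the other 3 pairs. Calls of the first test speak of these RNA pools only. The second test asks whether pools 5 and 6 lay farther apart than other like-treated pools did, and it has 1 pair on one side and 3 on the other.

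The 2 arrays of pools 5 and 6 pointed the same way for 5030 of 8448 clones (59.5%). In the other pairs the share was 44.1% (pools 1 and 2), 41.5% (pools 3 and 4) and 44.2% (pools 7 and 8). Across clones, the 2 arrays correlated at 0.22 (Pearson) and 0.26 (Spearman) in pools 5 and 6, against Pearson values of -0.07, -0.12 and -0.14 in the other pairs taken in the same order. With the sign of the reversed-label array of pools 5 and 6 turned, the correlation was -0.222 and the same-sign share 40.5%, of the same direction as in the other 3 pairs. Clones on an array share the same hybridization, so these coefficients are descriptions.

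The agreement was uneven. On the normal-label array 645 clones (7.63%) lay past 2-fold, and on the reversed-label array 64 (0.758%). Of all clones, 9 (0.107%) were past 2-fold the same way on both arrays, 7 higher (0.0829%) and 2 lower (0.0237%), and 3 (0.0355%) were past 2-fold in opposite ways. The count of 9 compares with 5, 22 and 0 in pools 1 and 2, 3 and 4, and 7 and 8. The robust SD over clones was 0.49 on the normal-label array and 0.26 on the reversed-label array. Averaged over both arrays, 136 clones (1.61%) were past 2-fold, against 0.545%, 0.959% and 0.296% of clones in the other pairs.

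**Figure D1:**
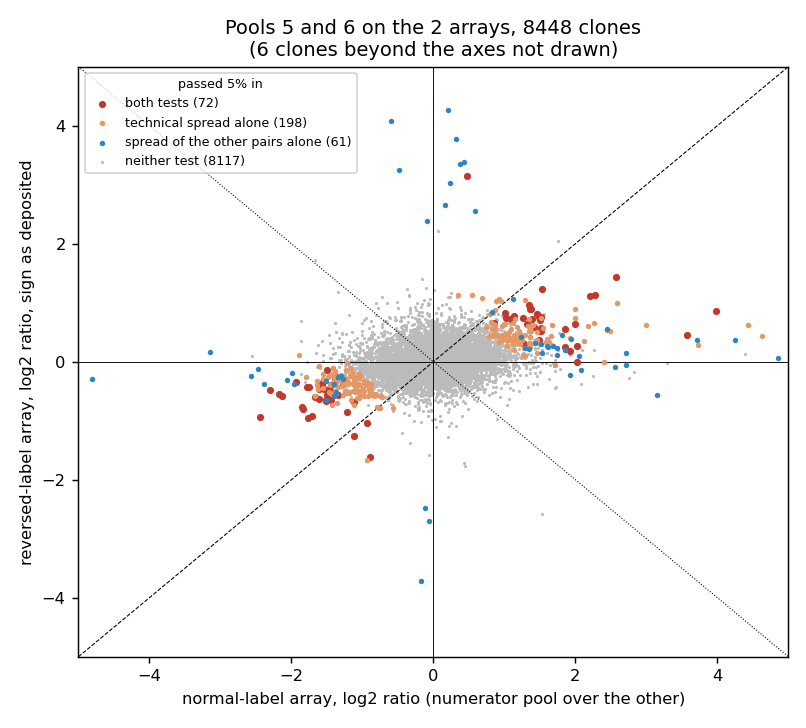
Each point is 1 clone, with its log2 ratio on the normal-label array of pools 5 and 6 (horizontal) and on the reversed-label array (vertical), and colours give the limma tests it passed at 5%. The dashed diagonal marks equal values on both arrays and the dotted one equal and opposite values. Clones past both tests (72, red) lie mostly in the upper right and lower left, flatter than the dashed line. Clones past the second test alone (61, blue) include a column near 0 on the normal-label array with large values on the reversed-label array.

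The first test called 270 of 8448 clones (3.2%), 133 higher (1.57%) and 137 lower (1.62%). The second called 133 (1.57%), 73 higher (0.864%) and 60 lower (0.71%). Both tests called 72 clones (0.852%), 34 higher (0.402%) and 38 lower (0.45%), of which 30 carried a gene symbol (11 higher and 19 lower). At an unadjusted p under 0.05, the first test had 2012 clones (23.8%) and the second 1801 (21.3%). Of these 72, 71 had the same sign on both arrays (59.5% of all clones) and 68 had 1 sign in all 4 spots (31.0% of all clones), as a test that counts disagreement between the arrays as spread favours. With the sign of the reversed-label array turned, the first test called 0 clones and the second 35. When each of the other pairs was put through the same tests, with pools 5 and 6 then among the remaining pairs, pools 1 and 2, 3 and 4, and 7 and 8 gave 0 calls each in the first test and 2, 14 and 8 calls in the second.

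Single arrays and pairs weighed heavily on these counts. Without the normal-label array of pools 5 and 6 the first test, the second test and both together called 23, 50 and 18 clones, and without the reversed-label array 87, 2295 and 87. Without pools 1 and 2 the first test called 2 clones and both tests together 2, without pools 3 and 4 they called 3 and 3, and without pools 7 and 8 they called 157 and 9, where the second test called 39. With the 8 arrays fitted singly and the pool pair as a random block, the second test called 327 clones. With all arrays scaled to one spread the first test called 0 clones and the second 24. With the slope on the dye component removed from both arrays of pools 5 and 6, they called 0 and 48.

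The dye component, the mean ratio of the other 3 pairs after turning their reversed-label arrays, moved with these calls. The pool difference of 65 of the 72 clones (90.3%) had the sign of the dye component, against 64.0% of all 8448 clones. The larger value was on the normal-label array in 67 of the 72 (93.1%), against 68.4% of all clones. The normal-label array of pools 5 and 6 had a slope of 1.51 on the dye component and the reversed-label array a slope of 0.15. Each of the other arrays was set against a dye component of the 3 pairs other than its own, which held pools 5 and 6. These slopes are therefore not on one common component. They were 0.99, 0.56 and 0.47 for the other normal-label arrays, and -0.34, -0.94 and -0.43 for the other reversed-label arrays. The reversed-label slope of pools 5 and 6 thus stood apart in sign from those of the other 3 pairs. The part of the dye in single calls was not tested, and dye preference that differs between the 2 arrays cannot be told apart from a pool difference in the same clones.

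Clones with the same sign on both arrays were ranked by the smaller of their 2 values in absolute size. The ranking does not measure how close the 2 values lay. *Pdi*, which encodes protein disulfide isomerase, an enzyme that forms disulfide bonds in the endoplasmic reticulum, headed the higher ones, with 1.53 on the normal-label and 1.22 on the reversed-label array. Both arrays put it past 2-fold, and its 4 spots were all above 0. Its 2 spots lay more than 1 unit apart on at least 1 array. With the first spots alone its pool difference was 1.81, and with the second spots alone 0.94. The mean was 1.38 (standard error 0.14 in the first test and 0.25 in the second), with limma adjusted p = 0.0233 and 0.0462. The *Pdi* clone stood at 0.17, -0.01 and -0.58 in pools 1 and 2, 3 and 4, and 7 and 8.

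*Prp18*, a pre-mRNA splicing factor gene, had 1.29 and 1.05 on the normal-label and reversed-label arrays, and *CG2964* had 1.12 and 1.06. These were the other 2 named clones past 2-fold the same way on both arrays. Each passed 1 of the 2 limma tests, *Prp18* the first (adjusted p = 0.0317, and 0.0522 in the second) and *CG2964* the second (adjusted p = 0.0457, and 0.167 in the first). Each gene also had another clone that stood on the other side of 0. The other *Prp18* clone had -0.72 and -0.40 on the 2 arrays, and the other *CG2964* clone -1.02 and -0.23. For both genes, then, 2 clones gave opposite directions, each with the same sign on both arrays.

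Clones of *Jabba*, *regucalcin*, *msk* and *gish* were also higher in both tests. *Jabba*, whose protein sits on lipid droplets and holds histones there in the embryo, had 1.45 on the normal-label and 0.81 on the reversed-label array (mean 1.13, limma adjusted p = 0.0233 and 0.0185). *regucalcin*, which encodes a calcium-binding protein, had 1.39 and 0.73 (mean 1.06, limma adjusted p = 0.0233 and 0.0462). *msk*, which encodes the nuclear import receptor moleskin, had 1.09 and 0.72 (mean 0.90, limma adjusted p = 0.0233 and 0.0462). In each of the 3 the normal-label value was the larger. The casein kinase gene *gish* also passed both (mean 1.13), but its 2 spots on the normal-label array read 0.16 and 2.82, a gap wider than its distance from 0.

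*Karybeta3*, which encodes another nuclear import receptor, had 1.35 and 0.72 on the normal-label and reversed-label arrays. *Kdm4A*, a histone lysine demethylase gene, had 1.15 and 0.72. Both passed the first limma test (adjusted p = 0.0233 each) and missed the second (adjusted p = 0.0609 and 0.0673). *alpha-Man-Ib*, an N-glycan trimming mannosidase gene, had 0.82 and 0.85, the closest match between the arrays among the 12 higher clones, and passed the second test (adjusted p = 0.0462, and 0.0675 in the first). *CG16782* (2.00 and 0.74) passed the first test and *Exn* (0.89 and 0.72) passed neither.

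**Figure D2:**
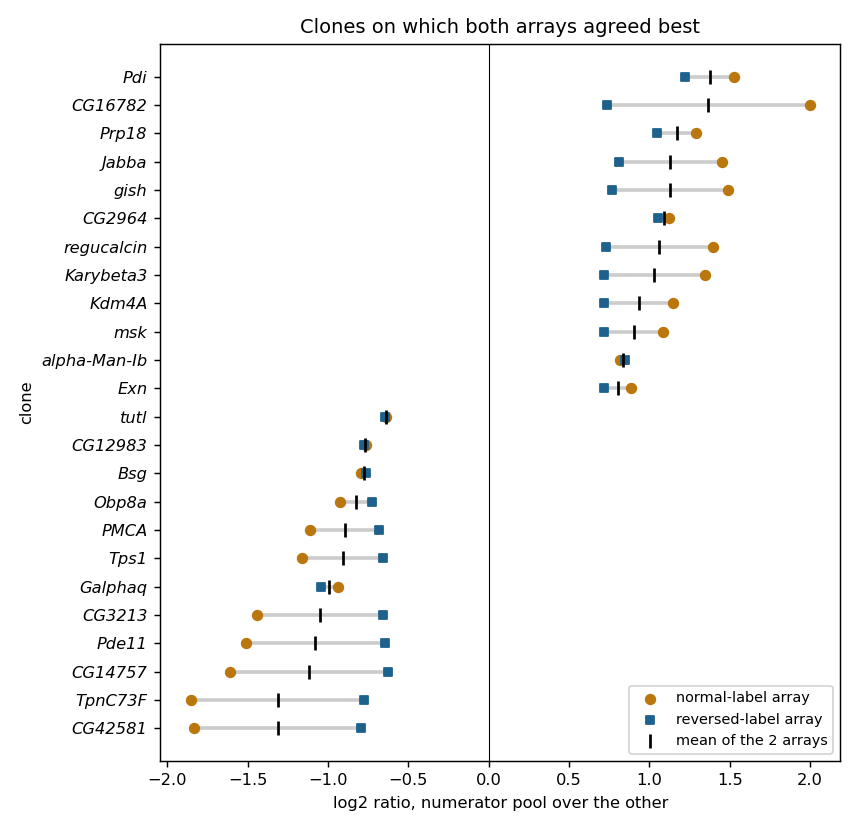
The 12 higher and 12 lower clones on which the smaller of the 2 array values was largest, with the log2 ratio of each array of pools 5 and 6 (circles, normal label; squares, reversed label) and their mean (black tick). Pairs of points nearly touch for *alpha-Man-Ib*, *CG2964*, *Galphaq*, *Bsg*, *CG12983* and *tutl*, while for *CG16782*, *TpnC73F* and *CG42581* the normal-label value lies about 1 unit farther from 0.

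On the lower side, 2 clones of muscle genes passed both tests. *TpnC41C* and *TpnC73F* encode troponin C, the calcium-sensing subunit of the thin filament. *TpnC41C* had -2.30 on the normal-label and -0.49 on the reversed-label array (mean -1.39, standard errors 0.18 and 0.18, limma adjusted p = 0.0233 and 0.0120). *TpnC73F* had -1.85 and -0.77 (mean -1.31, standard errors 0.16 and 0.21, limma adjusted p = 0.0233 and 0.0344). All 4 spots of each clone were below 0. In the dye component of the other pairs *TpnC41C* stood at -0.61 and *TpnC73F* at -0.29. With the dye slopes removed, their pool differences were -0.88 and -1.07, and neither clone passed. The limma adjusted p in the second test was then 0.0832 and 0.0807, and the first test called 0 clones. The part of the dye in these values was not tested. The 2 proteins are related, so a spotted cDNA of one may bind transcripts of the other, and the 2 clones are not counted as independent.

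Clones of *PMCA*, *Galphaq* and *Pde11* were also lower in both tests. *PMCA*, which encodes the plasma membrane calcium pump, had -1.11 and -0.68 on the normal-label and reversed-label arrays (mean -0.90, limma adjusted p = 0.0316 and 0.0344). *Galphaq*, a G protein alpha subunit gene of the phototransduction pathway in the eye, had -0.94 and -1.05 (mean -0.99, limma adjusted p = 0.0316 and 0.0385). *Pde11*, a cyclic nucleotide phosphodiesterase gene, had -1.51 and -0.65 (mean -1.08, limma adjusted p = 0.0416 and 0.0344). *Galphaq* was one of the few called clones with the larger value on the reversed-label array. *PMCA* and *Galphaq* each had a second clone, which had the same sign but a smaller pool difference (-0.19 and -0.18).

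*ND-B8*, a subunit gene of mitochondrial complex I, had -1.94 and -0.34 (mean -1.14), and its reversed-label spots read 0.57 and -1.26. *Nop10*, which encodes a component of the H/ACA ribonucleoprotein that modifies ribosomal RNA, had -1.67 and -0.59 (mean -1.13). *ocn*, a gene known for its expression in testis, had -2.14 and -0.58 (mean -1.36). All 3 passed both limma tests, with adjusted p of 0.0233 to 0.0316 in the first and 0.0152 to 0.0482 in the second. *CG42581* (mean -1.31), *fok* (-1.36), *CG14757* (-1.12), *CG3213* (-1.05), the cuticle protein gene *Lcp65Ag3* (-1.02) and 1 clone of *boly* (-1.003) also passed both.

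Of the other lower clones in the ranking by the smaller value, *Bsg*, which encodes the membrane glycoprotein basigin, had -0.79 and -0.76. *CG12983* had -0.76 and -0.78, where its normal-label spots read 0.48 and -1.998. *Tps1*, which encodes an enzyme that makes trehalose, the blood sugar of insects, had -1.16 and -0.66. These 3 passed the first limma test (adjusted p = 0.0316, 0.0346 and 0.0233) and missed the second (0.0630, 0.107 and 0.114). *Obp8a* (-0.92 and -0.73) and the immunoglobulin superfamily gene *tutl* (-0.64 and -0.64) passed neither. Near-identical array values were thus no guarantee of a call.

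The remaining named clones past both limma tests fall outside the rule for named genes and were chosen after their values were seen. On the higher side they were *CAH2*, a carbonic anhydrase gene (0.93), *ric8a*, which encodes a chaperone of G protein alpha subunits (1.05), *Rsph3*, a radial spoke gene of cilia and flagella (1.05), *CG4615* (1.02) and *CG17754* (0.79). On the lower side they were the folliculin gene *BHD* (-1.03), *CG31921* (-1.09), *CG11267* (-0.98), *ana* (-0.96) and the Cajal body gene *coil* (-0.83). Over the 30 named clones past both tests the higher pool differences ran from 0.79 to 1.81 and the lower ones from -1.39 to -0.83. The same clones in the other 3 pairs lay between -0.58 and 0.32, a narrower span that the second test had used to call them.

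**Figure D3:**
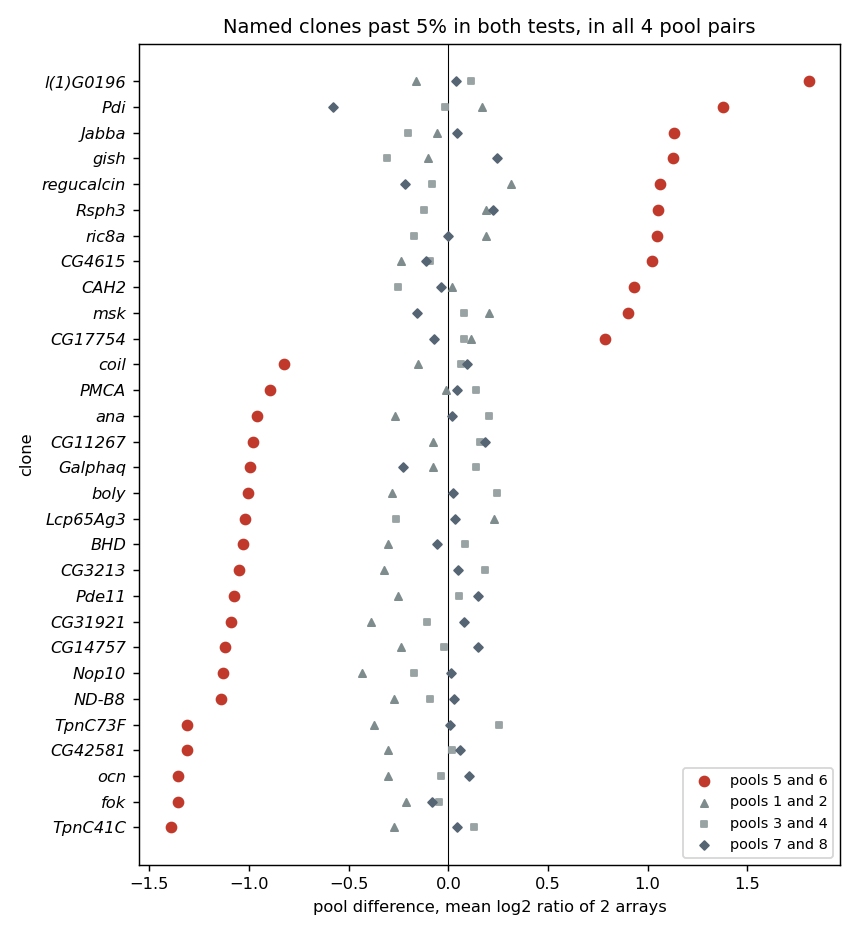
Pool difference (mean log2 ratio of 2 arrays) of the 30 named clones past 5% in both tests, in pools 5 and 6 (red circles) and in the other 3 pairs (grey symbols). The red circles lie at -1.39 to -0.83 and at 0.79 to 1.81, and the grey symbols between -0.58 (*Pdi*, pools 7 and 8) and 0.32 (*regucalcin*, pools 1 and 2). The other pairs set the spread of the second test, so the gap is partly what the calls required.

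The clones with the smallest p in the second test were mostly ones on which a single array or spot was extreme. *Obp56d*, an odorant-binding protein gene, read -12.09 on the normal-label array and -0.18 on the reversed-label array (mean -6.13, limma adjusted p = 2.57e-05, and 0.109 in the first test). Both of its spots on the normal-label array hold the same deposited value, and the other *Obp56d* clone had 0.49 and -0.35. *Tssk*, a serine/threonine kinase gene of the testis-specific family, was the reverse, at -0.32 and 7.16 (mean 3.42, limma adjusted p = 0.00016, and 0.134 in the first test), with 2 more clones at 0.21 and 0.07. For *Tssk* the 2 spots of the reversed-label array were both high, at 7.35 and 6.98.

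In 8 other clones 1 of 4 spots carried the value. *CG15144* read -0.48 and -13.28 in its 2 spots on the normal-label array, while its reversed-label spots read 0.84 and 0.42. *CG31231* read 0.71 and 5.59 on the normal-label array and -0.27 and -0.86 on the reversed-label array. On the reversed-label array *CG3618* read 0.42 and 7.11, *l(1)G0196* 6.05 and 0.23, and the gap gene *Kr* 4.94 and 0.16. On the same array *CG10734* read 5.40 and -0.09, *CG4294* -5.36 and -0.03, and *Mtap* -5.36 and 0.39. Each of these 8 clones thus had 1 spot within 1 unit of 0 beside a very large one on the same array. *CG3618* and *l(1)G0196* are neighbours in the spot order (clones 6232 and 6233), and the extreme spots are the last of the first clone and the first of the second. *l(1)G0196* passed both tests (mean 1.81), and the other 7 passed only the second.

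**Figure D4:**
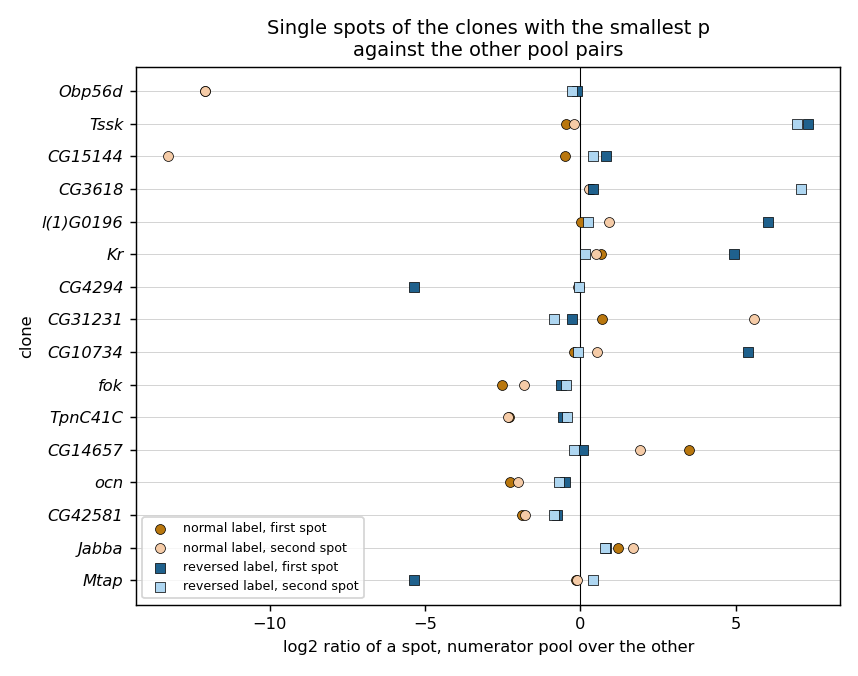
The 4 spot values (log2 ratio) of the 8 higher and 8 lower named clones with the smallest p in the second test, smallest at the top. Circles are spots of the normal-label array and squares of the reversed-label array of pools 5 and 6. In *CG15144*, *CG3618*, *l(1)G0196*, *Kr*, *CG4294*, *CG31231*, *CG10734* and *Mtap* a single spot lies far out, whereas for *fok*, *TpnC41C*, *ocn*, *CG42581* and *Jabba* all 4 spots lie on the same side of 0.

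Spot gaps differed between the sets of calls. The 2 spots of a clone lay more than 1 log2 unit apart on either array in 42 of the 61 clones called by the second test alone (68.9%), in 9 of the 72 called by both (12.5%) and in 976 of all 8448 clones (11.6%). Among the 270 calls of the first test, which counts disagreement between the arrays as spread, the number was 21 (7.78%). With the clones of gaping spots left out, 7472 clones remained, and the first test called 395, the second 16 and both 14.

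Opposite signs on the 2 arrays marked another group. *boly* gave one of the widest examples, a clone at 0.89 and -0.96 on the normal-label and reversed-label arrays. *CG13506* had -1.86 and 0.70, and its normal-label spots read -0.15 and -3.57. The other clones of this kind named by the rule included *CG31909* (1.07 and -0.64), *CG14589* (0.87 and -0.52), *CG14644* (0.61 and -0.67) and *ckn* (-0.73 and 0.58). Their pool differences lay near 0 (0.22, 0.18, -0.03 and -0.07). In *CG31909* a single spot gave the opposite sign, since its normal-label spots read 2.75 and -0.61 and its reversed-label spots -0.60 and -0.67. For *CG14589*, *CG14644* and *ckn* both spots of each array had the sign of their array.

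Genes with several clones gave a check of which the tests made no use. Of 288 genes with 2 or more clones, 129 had all their pool differences on one side of 0. At least 1 clone was called in 26 of the 288 by the first test and in 11 by the second, and in 0 of the 288 were all clones called by either test. Among the 216 genes with exactly 2 clones, 118 (54.6%) had both on the same side in pools 5 and 6. In the other pairs the share was 52.3%, 56.9% and 55.6%. Pools 5 and 6, with the most calls, thus had a share within the range of the other pairs.

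Single genes show this in their values. The 2 clones of *Hsc70-2*, a constitutive Hsp70 chaperone gene, lay close together, at 4.43 and 4.38, on the normal-label array and stood at 0.63 and 0.13 on the reversed-label array, and 1 of them passed the first limma test (adjusted p = 0.0233, and 0.0527 for the other). The 7 clones of *boly* ran from -1.003 to -0.04, and 1 was called. The 3 clones of *Bsg* ran from -0.78 to 0.25. *ND-13A*, a complex I subunit gene, had pool differences of -0.99 and -0.54, *tyf*, known for a role in clock neurons, -0.73 and -0.53, and the mucin gene *Muc68D* 1.14 and 0.41. Of these last 3, 1 clone each of *ND-13A* and *tyf* passed the first test (limma adjusted p = 0.0233 and 0.0364) and none the second.

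Gene lists described the tissues and pathways in the pools, each by its count of calls and its median beside that of all clones (0.005, and -0.009 for clones with 1 symbol). Among the clones with 1 symbol, 3.39% were called by the first test, 1.69% by the second and 1.06% by both. The oxidative phosphorylation list (12 clones of 10 genes) had a median of -0.39, and 10 of 12 pool differences were below 0. Its genes were *COX7C*, *ND-B8*, *ND-13A* and *ND-51*, and *UQCR-11L*, *COX7AL*, *COX6AL*, *SdhBL*, *SdhCL* and *ATPsynGL*, whose symbols end in L. The median covers both kinds of symbol together. In this list 2 clones were lower in the first test, *ND-B8* and 1 of *ND-13A*, and *ND-B8* also in the second. Both arrays had a negative list median (-0.45 and -0.31). In the other pairs the list medians were -0.09, 0.11 and 0.03. In the dye component of the other pairs the list median was -0.12 and the *ND-B8* clone stood at -0.53. With the dye slopes removed, the pool difference of *ND-B8* was -0.70, and it passed neither test (limma adjusted p = 0.127 in the second). The part of the dye in these values was not tested.

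The muscle list (8 clones of 8 genes) held the 2 troponin C clones, lower in both tests, and its other 6 clones did not pass and ran from -0.31 to 0.63. The list median was -0.16 in pools 5 and 6, against -0.11, 0.15 and -0.05 in the other pairs, and it stood above 0 with the second spots alone (0.09) and with clones of agreeing spots (0.07). Values of both signs occurred among these 6 clones. *Act88F*, the flight muscle actin gene, had -0.21 and -0.41 on the normal-label and reversed-label arrays, and *Prm*, the paramyosin gene, 0.20 and 0.10 (both chosen after their values were seen).

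Heat shock and chaperone clones (30 of 17 genes, 8 of them *DnaJ-1*) had a median of 0.22, and 19 of 30 were above 0. In the first test 2 were higher, 1 clone of *Hsc70-2* and 1 of *Hsc70-1*, and in the second 0. *Hsc70-1* had 2.99 and 0.62 on the 2 arrays in the called clone (limma adjusted p = 0.00951, and 0.0539 in the second test), and its 3 clones ran from -0.17 to 1.81. In the dye component of the other pairs the list median was 0.11, the *Hsc70-2* clones stood at 1.49 and 1.46 and the called *Hsc70-1* clone at 1.18. The same 3 clones had pool differences of 1.34, 1.32 and 0.73 in pools 1 and 2. They had -0.18, -0.26 and -0.51 in pools 3 and 4, and -0.17, 0.19 and -0.34 in pools 7 and 8. The part of the dye in these values was not tested.

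In the eye list (8 clones of 6 genes, median -0.13) 1 clone of *Galphaq* was lower in both tests, and the other 7 clones did not pass. The nervous system list (17 clones of 15 genes, median -0.15) had 0 calls in either limma test, although 11 of 17 pool differences were below 0. The cuticle list (18 clones, median 0.007, and -0.003 with quantile normalization) had *Lcp65Ag3* lower in both tests and *Vajk3* (-1.02) lower in the first. The male reproductive tract list (27 clones, median 0.03, and -0.03 with arrays scaled to one spread) had *ocn* lower in both tests, although the pools were labelled as female.

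Odorant-binding protein clones (27 of 21 genes, median -0.18) held 3 calls. *Obp57c* (-1.45 and -0.23 on the 2 arrays) was lower in the first limma test (adjusted p = 0.0269), *Obp99c* (1.92 and -0.23) higher in the second (adjusted p = 0.0365), and *Obp56d* lower in the second. Of these, *Obp99c* had opposite signs on the 2 arrays and *Obp56d* rested on 1 array. The ribosomal protein list (17 clones of 9 genes, median -0.15) held 9 clones of *RpL32*, and the median was the value of one of them. It also held *mRpL13*, *mRpL16* and *mRpL54*. In this list *RpS28b* was lower in the first test (-0.78, limma adjusted p = 0.0306). The cytoskeleton list (10 clones, median 0.23, and -0.06 without the normal-label array) had the alpha-tubulin gene *alphaTub85E* higher in the second. That clone had 5.69 and -0.23 on the normal-label and reversed-label arrays.

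The list named digestive enzymes (4 clones of 4 genes, median 0.46) held *LManII*, *mag*, *cathD* and *yip7*. The name is a label, and the part of these genes in digestion was not tested. The list was above 0 on both arrays in all 4 clones, and 0 passed either limma test. Its largest member was *yip7*, a serine protease gene, at 0.77 and 0.41 (adjusted p = 0.0528 and 0.120). The yolk and fat body list (4 clones, median 0.39) and the ovary germline list (9 clones, median -0.05) also had 0 calls, and no symbol of the eggshell list was found (0 clones). The lists for cytochrome P450 (4 clones), glutathione transferases (3), UDP-glycosyltransferases (7), antioxidant defence (6), immunity (5), alcohol metabolism (3), circadian clock (10), proteasome (15), translation factors (11), histones and chromatin (10) and chemoreceptors (1) held 0 calls, with medians between -0.27 and 0.45. The alcohol metabolism list held *Aldh-III*, *Aldh7A1* and *Dhrs4*, without a clone of *Adh*, and ran from -0.26 to 0.28. Whether these genes act on ethanol, the sprayed agent, was not tested.

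**Figure D5:**
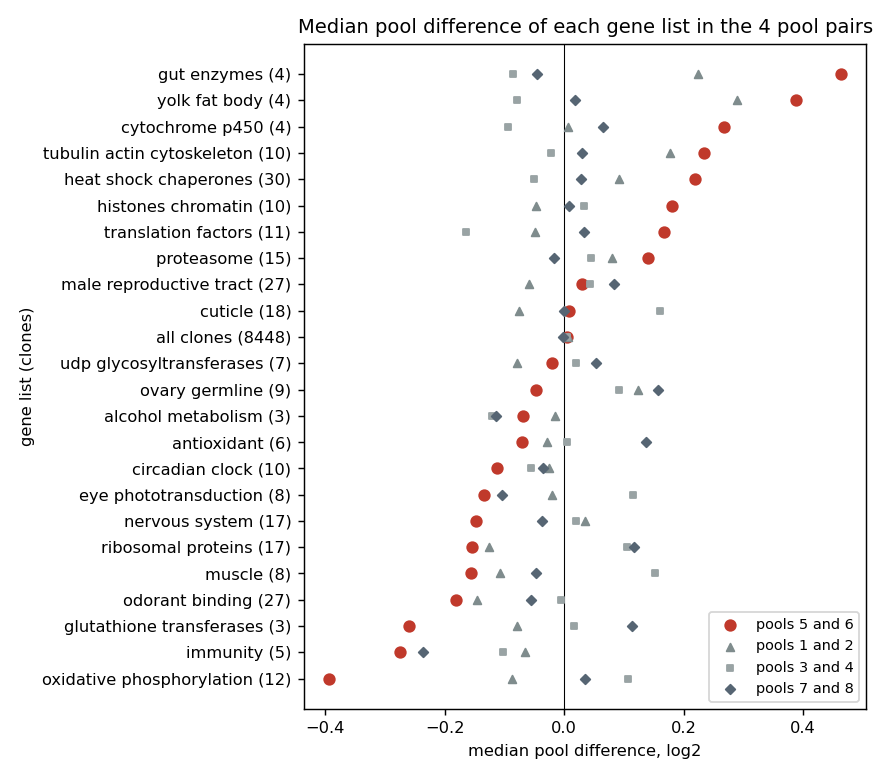
Median pool difference (log2) of each gene list with 3 or more clones, in pools 5 and 6 (red circles) and in the other 3 pairs (grey symbols), with the number of clones in brackets. In pools 5 and 6 the medians ran from -0.39 (oxidative phosphorylation) to 0.46 (the list named digestive enzymes), against 0.005 for all 8448 clones. For most lists the red circle lies farther from 0 than the grey symbols. Over all clones the pool differences were also more spread in pools 5 and 6 (robust SD 0.32) than in the other pairs (0.18 each).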

How the data were processed

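Each array file held 1 deposited log2 ratio per spot for 16896 spots. How the authors scanned, background-corrected and normalized the arrays is not given in the sources used here. As log base, 2 is an inference from the range of values, and 0 values were missing. Deposited medians were within 0.0023 of 0. No intensities were used, so signal over background is unknown, and the number of arrays limits the precision. Arrays were centred on their medians and both spots of a clone averaged, giving 8448 clones (2833 with 1 symbol, 76 with several, 5539 with none). Symbols came from GEO's platform annotation. RefSeq's gene table (assembly GCF_000001215.4) held all 2833 and served for names only.

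Pool differences were tested with limma 3.58.1 in R 4.3.3 (lmFit, eBayes, Benjamini-Hochberg over 8448 clones). The first test fitted a dye term and 1 coefficient per pool pair to 8 arrays (3 residual degrees of freedom before moderation). The second took 4 pair averages, with the other 3 pairs as residuals around 0. The same replicate number marks a labelling, and both arrays of a pair carry the same 2 RNA pools per the labels, so the pair is the unit. The tests were also run on simulated arrays without a dye component or a difference in technical spread between arrays. Pool noise was simulated in the other 3 pairs only. That run cannot speak to the dye and spread differences seen in these data. Gene lists got no test of their own.

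The members, lists and tests were chosen with earlier results of these data known. Clones with 1 symbol were named by rule: 12 higher and 12 lower with the largest smaller value of 2 same-sign arrays; 8 of each sign with the smallest p in each test; 8 genes with 2 or more clones of one sign and the largest median; 10 with opposite signs and the largest smaller value; and 3 per list with the largest mean. List members are given here as counts and ranges, with those that passed a test, and the genes of a few lists are named. The proteasome list was corrected by name after the data were seen. Alternatives covered centring, scaling, quantile normalization, single spots, spot agreement, direction, left-out arrays and pairs, dye slopes, threshold, moderation and the pair as a block.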

Additional observations from a re-analysis of the deposited data

Results flagged for a closer look

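Among the 4 pool pairs, 2 of 29 groups of 4 values held a value far from the rest, where chance gives about 1 in 20, and both were values of pools 5 and 6. The robust SD of the pool difference over 8448 clones was 0.3155 in pools 5 and 6, against 0.18 in each of the other pairs (pools 1 and 2, 3 and 4, and 7 and 8). The share of clones with the same sign on both arrays was 59.54% in pools 5 and 6, against 44.1%, 41.5% and 44.2%. With the sign of the reversed-label array of pools 5 and 6 turned, that share was 40.5%, near those of the other pairs. With the slope on the dye component removed from both arrays of pools 5 and 6, the robust SD of their pool difference was 0.29.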

How the results depend on the processing

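The counts of the first test, the second test and both were 270, 133 and 72. They became 0, 24 and 0 with arrays scaled to one spread, 0, 16 and 0 with quantile normalization, 8, 66 and 3 with the first spot alone, 0, 72 and 0 with the second spot alone, 0, 48 and 0 with the dye slopes removed, and 3, 24 and 1 at 1%. Turning the sign of the reversed-label array of pools 5 and 6 gave 0, 35 and 0, and with all reversed-label arrays turned 0, 23 and 0. Clones with agreeing spots gave 16 and 14 in the second test and both, and robust eBayes 264 and 150. Leaving out 1 array of the pair gave 23 to 87, 50 to 2295 and 18 to 87. Without pools 1 and 2 the first test and both gave 2 and 2, without pools 3 and 4 they gave 3 and 3, and without pools 7 and 8 the 3 counts were 157, 39 and 9. The second test gave 327 with the pool pair as a replicate block and 519 with no replicate block. The count for both tests was followed across alternatives only after the data were seen. No centring kept each count within 1.5 times.

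The share past 2-fold (1.61%) was 0.639% with scaled arrays, 0.687% with quantile normalization, 2.28% with the second spot alone, 0.734% with the sign turned, 0.994% with the dye slopes removed and 0.758% to 7.63% with 1 array left out. The turned sign gave a correlation of -0.222, a same-sign share of 40.5% and 3 clones past 2-fold the same way on both arrays, which were 19 with either spot alone.

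Under most alternatives all 72 clones of both tests kept their direction. The exceptions were 67 with the sign turned, 71 without the normal-label array and 63 of the 63 left with agreeing spots. The pool difference is the same at 1%, with robust eBayes, with or without a replicate block and without another pool pair. Direction could not change there. Scaling cannot turn a mean of 2 values of the same sign either, and 71 of the 72 had the same sign on both arrays. Far fewer of the 72 stayed called. The first and second tests still called 0 and 4 of them with scaled arrays, and 0 and 4 with quantile normalization. With the dye slopes removed they called 0 and 11, and without the normal-label array 2 and 8. No centring kept 72 and 72, and robust eBayes 71 and 70. Clones named for opposite signs on the 2 arrays, and list members given only as counts and ranges, were not followed across alternatives. Among the other named clones the turned sign reversed *Tssk* (-3.74), *CG3618* (-1.72), *l(1)G0196* (-1.33), *Kr* (-0.99), *CG10734* (-1.25), *alpha-Man-Ib* (-0.014), 1 clone of *ND-13A* (0.069), *tutl* (0.00085), *CG12983* (0.0089), *Galphaq* (0.053), *Mtap* (1.18) and *CG4294* (1.32). The first spot reversed *CG15144* (0.18), and the second spot *Mtap* (0.15). With 1 array of the pair left out, values that changed sign ran from -0.23 to 5.69 (*alphaTub85E*), -0.053 to 2.72 (*CG14657*), -0.23 to 1.92 (*Obp99c*), -0.68 to 3.27 and -0.57 to 3.15 in the first and second tests (*CG31231*), -7.01 to 0.76 and -6.88 to 0.63 (*CG15144*), -0.20 to 7.04 and -0.32 to 7.16 (*Tssk*), and in the first test -0.076 to 2.89 (*CG10734*) and -3.12 to 0.36 (*CG4294*). Of 24 list medians, 10 kept their sign under every alternative, among them oxidative phosphorylation, chaperones, digestive enzymes and yolk and fat body, and 14 changed it under at least 1. Turning a sign or leaving out an array changes a value by construction. The cause of the other changes was not tested. No intensities were used, so what dim spots limit is unknown.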
